A study of Drosophila melanogaster with 96 samples.

Results

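The genes described here are the glutathione S-transferases (GSTs) and the UDP-glycosyltransferases (UGTs) transcribed in the fly head. They were chosen by FlyBase symbol, as Ugt followed by a digit, or Gst followed by one of the class letters D, E, O, S, T or Z and a number. Of 70 such symbols in the table of 17610 genes, 54 had at least 10 counts in at least 12 of the 96 libraries, 31 of 35 GST symbols and 23 of 35 UGT symbols.

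GSTs join the tripeptide glutathione to electrophilic compounds, and UGTs transfer a sugar from a UDP-sugar to lipophilic ones. Both steps make toxic or signalling molecules more soluble and ready for export, and in insects both families act on insecticides, plant toxins and odorants. Insect GSTs are sorted into cytosolic classes, of which delta and epsilon (D and E) have expanded in insects, while omega, sigma, theta and zeta (O, S, T and Z) are shared with vertebrates.

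Polyadenylated RNA was sequenced from heads of adult Drosophila melanogaster of the inbred ISO1 strain, labelled male. A light-dark cycle with 12 h of light per day was run at 25 °C, and constant darkness was run at 18 °C, at 25 °C and at 29 °C. Sampling covered days 4 and 5 at hours 0, 4, 8, 12, 16 and 20, with 2 biological replicates each, which makes 24 libraries in each of the 4 conditions. What hour 0 and the day numbers count from is not defined in the labels, and no batch is given, so condition and any incubator or collection run cannot be told apart.

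Library totals ran between 17.31 M and 34.74 M counts (M, 1000000 counts), with medians between 20.49 M and 21.67 M in the 4 conditions. Summed RNA of 6 photoreceptor marker genes had medians between 43268 and 66738 CPM (counts per 1000000). Transcripts of the yolk protein genes Yp1 to Yp3, products of the female fat body, summed to between 21663 and 71269 CPM in each of the 96 libraries labelled male. The male dosage compensation RNA lncRNA:roX1 was also present in each, at 277 to 725 CPM. Because yolk protein RNA was high in each library, no result could be repeated without it, and its part in the results below was not tested. None of 4 accessory gland markers passed the filter, and the most counted, Acp36DE, had at most 6 counts in a library. As in any bulk sample, fewer cells of a type and less RNA per cell cannot be told apart.

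The members sit in short gene runs, which matters below because neighbours did not always move together. By BDGP6.54 coordinates (the authors' own build is not given in the sources used here), GstD1 to GstD11 lie within 20.8 kb of chromosome 3R (12364776 to 12385624), and 8 of these 11 genes were members. GstE1 to GstE10 lie within 13.2 kb of chromosome 2R (18396638 to 18409835), and 9 of 10 were members. Ugt35C1, Ugt302K1, Ugt302E1, Ugt302C1, Ugt35E2, Ugt35B1 and Ugt35A1 lie within one run on chromosome 3R (11126597 to 11177910), Ugt36F1, Ugt36D1 and Ugt36E1 within 9.7 kb of chromosome 2L, and GstZ1 and GstZ2 within 5.1 kb of chromosome 3R. Neighbouring copies may share reads, and the table holds part counts, which can arise when a read is divided between features, so values of near copies are uncertain to that extent. Exons of 11 members also overlap a feature on the opposite strand, by 400 bases for Ugt36A1, 223 for GstT2, 90 for Ugt49B1, 61 for GstO2 and 59 or fewer for Ugt37A1, Ugt36E1, GstE9, GstE12, GstE10, GstE1 and GstE13, and the strand setting of the counting is not given in the sources used here.

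At the edge of the rule, Ugt37A1 reached 10 counts in 12 libraries and Ugt37C2 in 20, whereas GstE4 and Ugt305A1 reached it in 2 and GstD4 and Ugt37E1 in 1. In all, 46 members had 10 counts in each of the 96 libraries. The other 8 were GstD5, GstD8, GstE10, Ugt302E1, Ugt35E2, Ugt37A1, Ugt37C1 and Ugt37C2, with means of 5.45 to 15.1 counts per library. Ugt37C1 and Ugt37C2 reached 10 counts in 0 of 24 libraries at 18 °C, so they entered through the warmer conditions, and Ugt37A1 reached it in none at 25 °C or 29 °C in darkness. These 3 genes passed the filter only through the conditions where they are high, so their differences are given as description and support nothing.

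Per kilobase of exon, the scale on which genes can be compared with each other, GST transcripts were led by 1 delta and 4 epsilon genes. GstD1, which can break down DDT and is a common reporter of oxidative stress, averaged 369 ± 35.9 CPM per kb (SD, n = 96 libraries). GstE12 averaged 302 ± 41.7, GstE9 241 ± 63.5, GstE1 110 ± 15.2 and GstE6 99.2 ± 12.1 CPM per kb. These 5 genes held 67.7% of the GST sum. The UGT family was flatter and lower, with Ugt35C1 at 44.5 ± 9.91, Ugt49B1 at 43.9 ± 7.44, Ugt35B1 at 41.9 ± 14.3, Ugt302C1 at 34.4 ± 5.05 and Ugt37D1 at 30.3 ± 4.77 CPM per kb, together 59.1% of the UGT sum. The median member stood at 15.98 CPM per kb among GSTs and at 12.0 among UGTs. Neighbours in this order overlapped in range, as GstD1 spanned 272 to 475 and GstE12 208 to 390 CPM per kb over the 96 libraries.

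**Figure D1:**
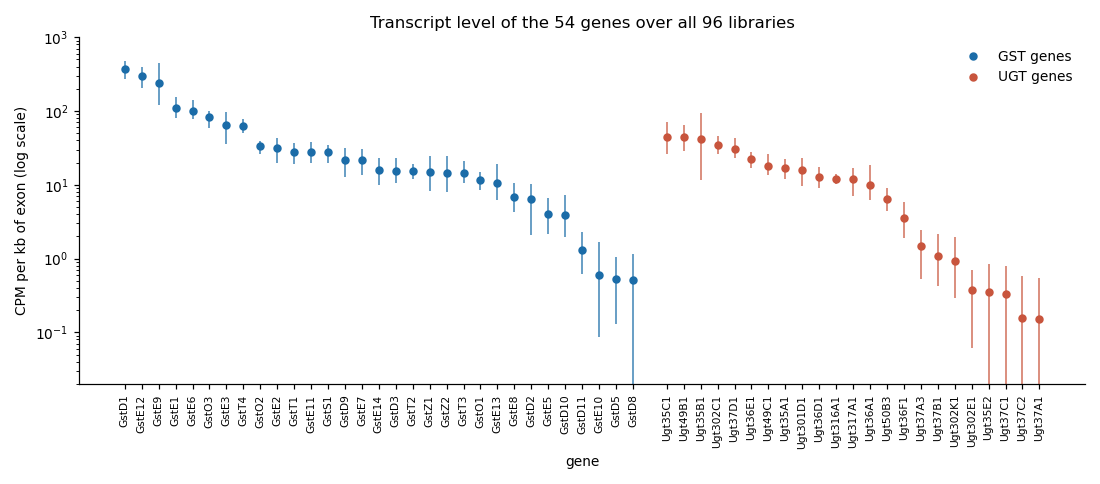
Mean level (points) and lowest to highest library (lines) of each of the 54 genes over 96 libraries, in CPM per kb of exon on a log axis, GSTs in blue and UGTs in red, each family sorted by its mean. The 5 highest GSTs run from 369 to 99.2 CPM per kb and the 5 highest UGTs from 44.5 to 30.3; lines that reach the lower edge belong to genes with a library at or near 0.

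Across the dark temperatures, more members of both families were lower at 29 °C than at 18 °C than were higher. Among GSTs, 18 of 31 fell and 7 rose at an adjusted p under 0.05 (called, below), and among UGTs 12 of 23 fell and 7 rose. The UGT counts hold the 3 genes that entered only through the conditions where they are high, and among the 18 UGTs with a mean of at least 1 CPM, 11 fell and 4 rose. Of the 11000 genes tested, 73.9% were called in this comparison, 36.6% higher and 37.3% lower at 29 °C. The members' share called, 25 of 31 GSTs and 19 of 23 UGTs, was near that of all genes. The median log2 fold change was -0.15 for GSTs and -0.18 for UGTs, beside -0.0021 for all genes. Whether the families differ from each other, or from other genes, was not tested.

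Among delta GSTs, 4 of 8 fell and 1 rose at 29 °C relative to 18 °C. GstD2, a delta enzyme, ran from 1.55 through a median of 3.23 to 3.95 CPM at 29 °C and from 4.75 through 6.23 to 7.60 CPM at 18 °C. The groups did not overlap, and the log2 fold change was -1.02 ± 0.067 (SE, edgeR adjusted p = 6.96e-25). The exception was GstD9, which lies between GstD10 and GstD1 in the cluster. It held 16.8, 19.5 and 24.9 CPM (lowest, median and highest library) at 29 °C and 10.03, 12.5 and 17.2 CPM at 18 °C. This was a log2 fold change of 0.62 ± 0.052 (edgeR adjusted p = 6.36e-19), although the ranges overlapped slightly. GstD10 and GstD11, at either end of the cluster, fell by 0.46 and 0.45 on the log2 scale. GstD1 itself was not called, with medians of 304 CPM at 29 °C and 312 CPM at 18 °C and a log2 fold change of -0.03 (edgeR adjusted p = 0.43).

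Of the 13 epsilon GSTs, 10 fell and 2 rose. GstE13 spanned 6.53 to 10.7 CPM with a median of 8.15 at 29 °C, against 13.7 to 20.2 CPM with a median of 16.3 at 18 °C. Its groups stood apart, and its log2 fold change of -1.01 ± 0.048 (edgeR adjusted p = 4.97e-34) was close to that of GstD2. The next falls were smaller and their groups overlapped. GstE9 had a median of 149 CPM (95.7 to 190) at 29 °C and 231 CPM (141 to 306) at 18 °C, or a log2 fold change of -0.60 ± 0.078. GstE3 had medians of 38.7 and 58.2 CPM at 29 °C and 18 °C (log2 fold change -0.53), and GstE7 had 13.2 and 19.2 CPM (-0.49). GstE14, known as noppera-bo and needed for ecdysteroid synthesis, fell by 0.36, and GstE12, the most abundant epsilon gene, fell by 0.41. GstE5 went the other way, at 2.44 to 4.35 CPM (median 3.40) at 29 °C and 1.56 to 3.24 CPM (median 2.46) at 18 °C, with a log2 fold change of 0.44 ± 0.084. GstE8 rose by 0.22, while GstE6, which lies between GstE5 and GstE7, had a log2 fold change of 0.02 that was not called.

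The zeta GSTs, homologues of the maleylacetoacetate isomerase of tyrosine breakdown, both rose at 29 °C. GstZ2 had 31.5, 41.0 and 52.1 CPM (lowest, median, highest) at 29 °C and 19.4, 22.7 and 27.2 CPM at 18 °C. With groups that did not overlap and a log2 fold change of 0.85 ± 0.038 (edgeR adjusted p = 1.45e-35), it was the most strongly raised GST. GstZ1 had medians of 14.8 CPM at 29 °C and 12.1 CPM at 18 °C and a log2 fold change of 0.30 ± 0.060, which was 0.19 and not called (edgeR adjusted p = 0.0757) without the replicate 2 libraries. In the remaining classes the changes were small. GstT3 rose by 0.29 and GstS1, a sigma GST abundant in flight muscle, by 0.11, whereas GstT4 fell by 0.36 and GstT2, GstO1 and GstO2 by 0.07 to 0.13. The summed level of 5 muscle marker genes had a median of 3812 CPM at 29 °C and 2841 CPM at 18 °C, and its part in the GstS1 difference was not tested.

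UGTs showed the same mixture within groups of close relatives. Ugt302K1 spanned 0.745 to 2.16 CPM (median 1.48) at 29 °C and 2.89 to 5.03 CPM (median 3.82) at 18 °C. Its groups were apart, and at a log2 fold change of -1.38 ± 0.085 (edgeR adjusted p = 1.90e-26) it fell the most among members with a mean of 1 CPM or more. Ugt302C1, one of the most abundant UGTs, also fell without overlap, with 53.4 to 65.5 CPM (median 59.9) at 29 °C against 68.6 to 88.9 CPM (median 79.7) at 18 °C and a log2 fold change of -0.41 ± 0.025. Ugt35A1 did so too, with 23.2 to 29.0 CPM at 29 °C against 29.7 to 39.2 CPM at 18 °C (log2 fold change -0.35 ± 0.030). Ugt35B1, described as preferentially expressed in the antenna, had medians of 60.5 and 81.8 CPM at 29 °C and 18 °C (-0.46 ± 0.044). The antenna markers Orco, lush, Obp83a and Obp83b had medians of only 66.5, 21, 14 and 8 counts per library, and Obp19d of 21659. The tissue source of Ugt35B1 RNA in these heads was not tested. Ugt37D1 had medians of 49.6 and 70.5 CPM at 29 °C and 18 °C (log2 fold change -0.49 ± 0.035).

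Ugt36F1 rose the most among UGTs above 1 CPM. It had 5.96, 7.60 and 9.82 CPM (lowest, median, highest) at 29 °C and 3.20, 3.96 and 5.76 CPM at 18 °C, and its groups did not overlap (log2 fold change 0.87 ± 0.067, edgeR adjusted p = 5.79e-21). Its neighbour Ugt36D1 fell by 0.29 and the next gene along, Ugt36E1, which has been linked to pheromone sensitivity of olfactory neurons, rose by 0.11, a call lost without the replicate 1 libraries (0.09, edgeR adjusted p = 0.0693). Ugt35C1 rose, whereas Ugt35A1 and Ugt35B1 fell, with medians of 77.1 CPM at 29 °C and 55.1 CPM at 18 °C, a log2 difference of 0.51 ± 0.051. Ugt50B3, the only gene of its group in the table, had medians of 23.0 and 17.2 CPM at 29 °C and 18 °C (log2 fold change 0.42 ± 0.042).

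UGTs near the limit of detection are given by their values. Ugt37C1 had 0.417 to 1.39 CPM at 29 °C and 0 to 0.355 CPM at 18 °C. Ugt37C2 had medians of 0.389 CPM at 29 °C and 0.118 CPM at 18 °C. Ugt37A1 had medians of 0.148 and 0.318 CPM at 29 °C and 18 °C, and Ugt302E1 of 0.669 and 0.363 CPM. In all, 8 of 54 members had groups apart between 29 °C and 18 °C, beside 10.9% of all genes (5.34% higher, 5.60% lower). They were GstD2, GstE13, GstZ2, Ugt302K1, Ugt302C1, Ugt35A1, Ugt36F1 and Ugt37C1, the last of which entered only through conditions where it is high. Summed glial markers had a median of 1780 CPM at 29 °C and 2427 CPM at 18 °C, summed fat body markers of 8117 and 10059 CPM, and summed photoreceptor markers of 66416 and 52061 CPM, and their part in these differences was not tested.

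**Figure D2:**
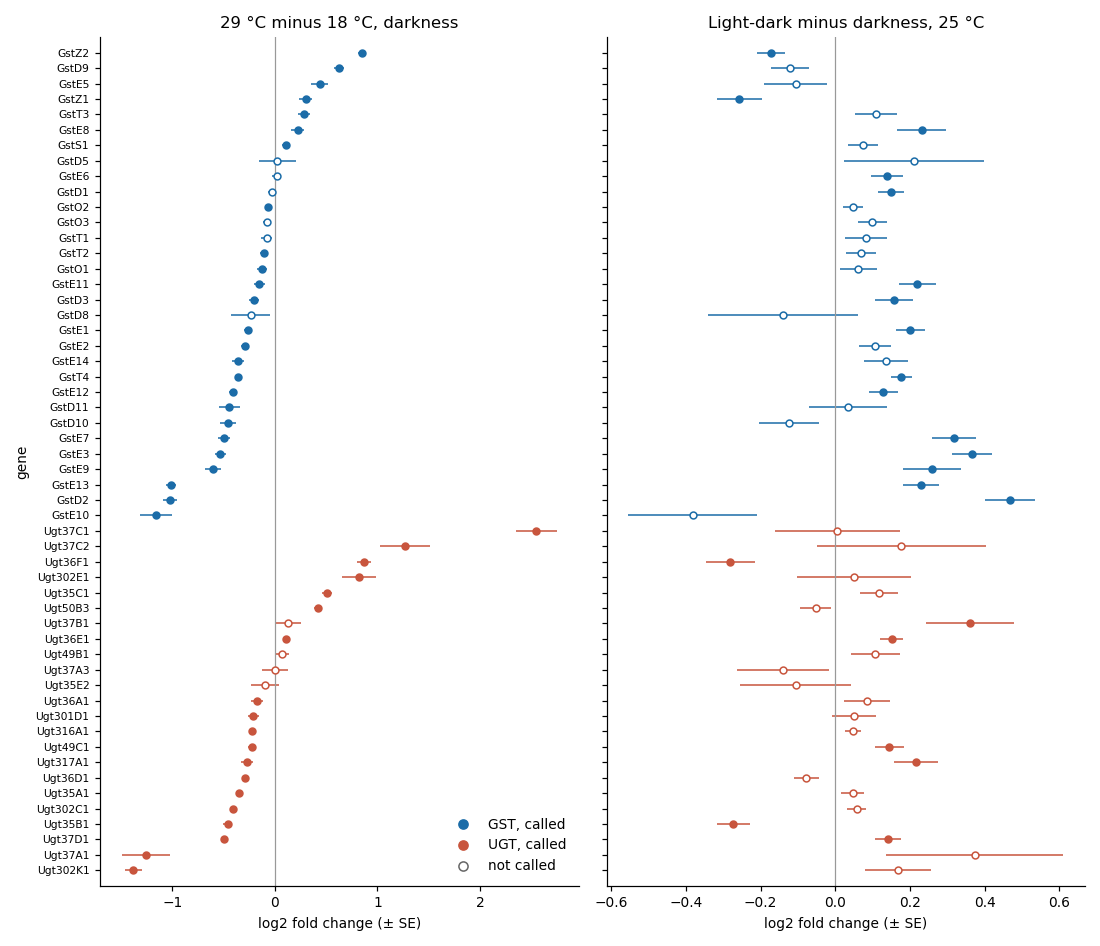
Log2 fold changes (± SE) of the 54 genes at 29 °C relative to 18 °C in darkness (left) and in the light-dark cycle relative to darkness at 25 °C (right), GSTs in blue and UGTs in red, filled where called (adjusted p under 0.05). Genes are ordered by the temperature change within each family, and the 2 axes differ in scale; 18 GSTs and 12 UGTs are called lower at 29 °C, and 13 GSTs and 5 UGTs are called higher in the light-dark cycle.

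More members differed between 18 °C and 25 °C, the wider step in temperature, than between 25 °C and 29 °C. At 18 °C relative to 25 °C in darkness, 19 GSTs were higher and 5 lower, and 12 UGTs were higher and 8 lower, beside 66.1% of all genes called (32.8% higher, 33.2% lower). Of the 18 UGTs with a mean of at least 1 CPM, 10 were higher and 5 lower. GstE13 had 13.7 to 20.2 CPM at 18 °C and 6.51 to 11.8 CPM at 25 °C, the single member whose groups were apart, beside 4.57% of all genes with 2.36% higher and 2.21% lower (log2 fold change 0.84 ± 0.048, edgeR adjusted p = 2.49e-28). GstZ2 had a median of 22.7 CPM at 18 °C against 38.6 CPM at 25 °C (-0.68 as a log2 fold change), GstD9 of 12.5 and 19.0 CPM (-0.54) and Ugt36F1 of 3.96 and 6.46 CPM (-0.67). Ugt302K1 had medians of 3.82 CPM at 18 °C and 1.87 CPM at 25 °C (1.01 ± 0.083). GstS1 was lower at 18 °C by 0.14, a call lost without replicate 2 (-0.08, edgeR adjusted p = 0.249), and Ugt37B1 was lower by 0.34, lost likewise (-0.35, edgeR adjusted p = 0.12). The number of GSTs called was 13 without the replicate 2 libraries, 9 of them higher at 18 °C, and 19 without the replicate 1 libraries. Calls over all genes came to 56.2% without replicate 2 and 56% without replicate 1. With day 4 alone, 7 GSTs were higher at 18 °C and 7 lower (median log2 fold change 0.06, 53.7% of all genes called). With day 5 alone, 16 were higher and 4 lower (median 0.22, 54.6% of all genes called).

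Fewer calls were made between 29 °C and 25 °C. At 29 °C, 2 GSTs were higher and 8 lower than at 25 °C, and 2 UGTs were higher and 7 lower, beside 26.4% of all genes called (12.9% higher, 13.5% lower). Groups overlapped for each of the 54 members and were apart for 0.0636% of all genes (0.0545% higher, 0.00909% lower). The median of GstD2 was 3.23 CPM at 29 °C and 4.06 CPM at 25 °C (difference -0.37 ± 0.070 in log2, edgeR adjusted p = 1.73e-05), and Ugt35A1 had 26.3 and 29.8 CPM (-0.19 ± 0.030). GstT3 was higher by 0.24 and GstZ2 by 0.16, and Ugt302K1 was lower by 0.37. Without replicate 1, calls were lost for GstD10 (-0.21, edgeR adjusted p = 0.294), GstE14 (-0.09, p = 0.464), Ugt302K1 (-0.29, p = 0.131) and Ugt36F1 (0.22, p = 0.131). Without replicate 2, they were lost for GstT3 (0.18, edgeR adjusted p = 0.116), Ugt35B1 (-0.12, p = 0.244) and Ugt36F1 (0.19, p = 0.139). The count of GSTs called was 6 without replicate 1 and 5 without replicate 2, and that of UGTs 6 and 3. Calls over all genes also fell, to 18.8% without replicate 1 and 9.55% without replicate 2. With day 4 alone, 0 GSTs were higher at 29 °C and 4 lower (7.3% of all genes called). With day 5 alone, 2 were higher and 1 lower (median log2 fold change 0.0027, 14.9% of all genes called).

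The comparisons of 18 °C and of 29 °C with 25 °C share the 25 °C libraries, so the levels are given side by side. GstD2 averaged 6.21 ± 0.77, 3.96 ± 0.72 and 3.05 ± 0.58 CPM at 18 °C, 25 °C and 29 °C (SD, n = 24 each). Ugt302K1 averaged 3.91 ± 0.65, 1.95 ± 0.45 and 1.495 ± 0.295 CPM. GstZ2 averaged 22.9 ± 1.89, 36.9 ± 4.87 and 41.3 ± 5.32 CPM, with the larger part of its rise below 25 °C, where the step in temperature is also wider.

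**Figure D3:**
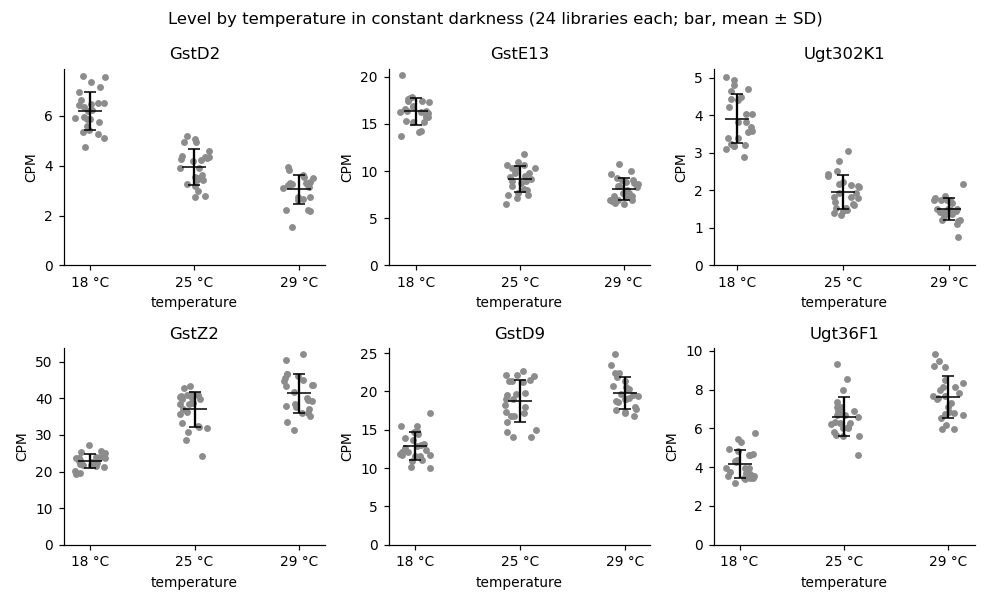
Level in CPM of 6 genes in constant darkness at 18 °C, 25 °C and 29 °C; each point is a library, and bars give the mean ± SD of 24 libraries. GstD2, GstE13 and Ugt302K1 (top) fall with temperature and GstZ2, GstD9 and Ugt36F1 (bottom) rise, with a larger difference between 18 °C and 25 °C than between 25 °C and 29 °C in each. The lower of these steps in temperature is also the wider.

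GST transcripts were more often higher than lower in the light-dark cycle. Relative to constant darkness at 25 °C, 13 of 31 GSTs were higher and 2 lower, and 5 of 23 UGTs were higher and 2 lower, beside 22.4% of all genes called (11.4% higher, 11.0% lower). In the epsilon class 9 of 13 members were higher and none was lower, and in the delta class 3 of 8 were higher. Without the replicate 2 libraries, 2 epsilon and 1 delta GSTs were called higher, and 4 GSTs in all. The median log2 fold change was 0.11 for GSTs, 0.20 for the epsilon class alone, 0.06 for UGTs and -0.0013 for all genes. Groups overlapped for each of the 54 members, and were apart for 0.00909% of all genes. The number of GSTs called was 5 without the replicate 2 libraries and 17 without the replicate 1 libraries, with GST medians of 0.09 and 0.14. UGTs called numbered 3 without replicate 2 (1 higher, 2 lower) and 4 without replicate 1 (2 higher, 2 lower), with UGT medians of 0.09 and 0.09. Calls also fell over all genes, to 7.25% without replicate 2 and 16.7% without replicate 1.

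GstD2 had 3.86, 5.43 and 6.72 CPM (lowest, median, highest) in the light-dark cycle and 2.75, 4.06 and 5.18 CPM in darkness, the largest rise among called members (log2 fold change 0.47 ± 0.066, edgeR adjusted p = 4.38e-08). GstE3 had 44.4, 53.7 and 73.0 CPM in the cycle and 26.6, 43.3 and 61.2 CPM in darkness (0.37 ± 0.053, edgeR adjusted p = 7.92e-08). GstE7 had 13.6, 18.6 and 22.6 CPM in the cycle and 10.5, 15.1 and 20.2 CPM in darkness (0.32 ± 0.059). All 3 calls held under each of the 14 other settings tried. GstE1, GstE8, GstE9, GstE11 and GstE13 were higher by 0.20 to 0.26, and the abundant GstD1 by 0.15, with medians of 322 CPM in the cycle and 296 CPM in darkness. None of these 6 was called without replicate 2, when their log2 fold changes lay between 0.10 (GstD1, edgeR adjusted p = 0.124) and 0.24 (GstE9, p = 0.127).

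Both zeta GSTs were called lower in the cycle. GstZ1 had medians of 11.4 CPM in the cycle and 14.2 CPM in darkness (log2 fold change -0.26 ± 0.061), a call lost without replicate 2 (-0.22, edgeR adjusted p = 0.159), and GstZ2 had 33.7 and 38.6 CPM (-0.17 ± 0.037). The GstZ2 call comes from a mean of logs over a strong daily course. Its mean in the cycle was 1.25 times that in darkness at hour 0 and 0.631 times at hour 12, it was higher at 6 of 12 time points and lower at 6, and its arithmetic means were 34.9 ± 13.1 CPM in the cycle and 36.9 ± 4.87 CPM in darkness. Among UGTs, Ugt37B1 was higher by 0.36, Ugt317A1 by 0.22 and Ugt36E1 by 0.15, while Ugt36F1 was lower by 0.28. Without replicate 1 these came to 0.31 (edgeR adjusted p = 0.0886), 0.18 (p = 0.0710) and 0.10 (p = 0.0936) for the first 3. Without replicate 2, Ugt37B1 (0.44, edgeR adjusted p = 0.14), Ugt317A1 (0.25, p = 0.0740) and Ugt36F1 (-0.17, p = 0.239) were not called. Ugt35B1 was called lower by 0.27 ± 0.044 as a mean of logs, yet its arithmetic mean was 68.5 ± 43.3 CPM in the cycle and 67.5 ± 9.67 CPM in darkness, and the wide spread in the cycle follows its hours, given below.

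Of the 13 GSTs called both for temperature and for light, 10 were lower at 29 °C and higher in the light-dark cycle, 2 (the zeta pair) were higher at 29 °C and lower in the cycle, and 1 was higher in both. Opposite directions were also common over all genes, as of the 2037 genes called in both, 44.2% were lower at 29 °C and higher in the cycle, 40.3% the reverse, 6.97% higher in both and 8.54% lower in both. Without replicate 2, the light calls over all GSTs came to 4 higher and 1 lower. The 6 such UGTs divided as 3, 1 and 1 in the same order, with 1 lower in both. The comparison of 29 °C with 18 °C and that of the cycle with darkness at 25 °C share no library. Summed photoreceptor markers had a median of 43268 CPM in the cycle and 66738 CPM in darkness, a gap in the same libraries, and summed fat body markers of 8994 and 8659 CPM. The part of these markers in the light differences was not tested.

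Rhythms were called in the light-dark cycle more often than in darkness. A 24 h curve was called in 24 of the 54 members in the cycle, 14 of 23 UGTs and 10 of 31 GSTs, beside 13.7% of all genes. In constant darkness it was called in 2 members at 25 °C (0.409% of all genes), in 1 at 29 °C (0.127%) and in none at 18 °C (0.182%), where 0 members had an unadjusted p under 0.05 in edgeR and none was called with limma-voom. The median amplitude, the log2 distance from mean to peak of the fitted curve, was 0.30 for UGTs and 0.11 for GSTs in the cycle, against 0.08 for all genes. For each of the 24 rhythmic members, which were chosen by their rhythm in the cycle, the amplitude was larger there than in darkness at 25 °C.

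Ugt35B1 had the strongest daily course. In the cycle it stood at 122, 158, 126 and 147 CPM in the 4 libraries of hour 0 and at 19.4, 25.4, 21.5 and 22.0 CPM in those of hour 16. In darkness at 25 °C the same hours gave 71.0, 79.9, 58.9 and 59.6 CPM and 52.5, 61.6, 66.6 and 59.2 CPM. Its mean in the cycle was 2.05 times that in darkness at hour 0 and 0.368 times at hour 16, so it was above darkness at one hour and below it at the other. Its amplitude in the cycle was 1.39 ± 0.045 (SE) with a peak at hour 1.85 ± 0.12 (edgeR adjusted p = 2.61e-42), a 6.84-fold change from trough to peak.

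The genes beside Ugt35B1 peaked at nearby hours. Ugt35A1 had 38.1, 38.0, 38.6 and 40.1 CPM at hour 4 and 26.03, 23.2, 23.2 and 26.3 CPM at hour 16 (amplitude 0.35 ± 0.030, peak at hour 3.38). Ugt35E2, on its other side, was sparse, at 0.749 to 1.47 CPM at hour 0 and 0.035 to 0.309 CPM at hour 16 (amplitude 1.26 ± 0.16, peak at hour 0.0784). Ugt302C1 had 79.7, 83.2, 82.3 and 91.4 CPM at hour 0 and 56.2, 52.8, 56.2 and 53.8 CPM at hour 16 (amplitude 0.33 ± 0.025, peak at hour 2.84). Ugt35C1, at the far end of the same run of genes, peaked at another time of day. It had 100, 120, 104 and 119 CPM at hour 16 and 68.9, 75.3, 63.0 and 68.2 CPM at hour 4, with a peak at hour 17.9 ± 0.73 (amplitude 0.27 ± 0.051, edgeR adjusted p = 9.92e-05). Of the 7 members in this run, 6 were rhythmic in the cycle.

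In the Ugt36 run on chromosome 2L, Ugt36F1 and Ugt36D1 peaked together and Ugt36E1 was not called. Ugt36F1 had 7.74, 8.41, 7.47 and 8.45 CPM at hour 20 and 4.31, 3.18, 3.15 and 4.12 CPM at hour 8 (amplitude 0.53 ± 0.067, peak at hour 22.3). Ugt36D1 had 34.0, 37.1, 34.6 and 36.8 CPM at hour 20 and 21.1, 20.5, 21.3 and 21.5 CPM at hour 12 (amplitude 0.36 ± 0.034, peak at hour 22.0). Ugt36A1, elsewhere on 2L, peaked at hour 20.2 (amplitude 0.48 ± 0.061). Its exons overlap those of CG15418 on the other strand, and reads of the 2 genes cannot be told apart there without the strand setting. Ugt37C2 also passed with an amplitude of 0.85 at hour 17.5, but at 0.161 to 1.05 CPM at hour 20 it overlapped its values at hour 4 (0.047 to 0.228 CPM), and without replicate 1 its amplitude was 0.39 and not called (edgeR adjusted p = 0.77).

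Among GSTs, the zeta pair again stood out. GstZ2 had 41.3, 52.7, 50.6 and 56.2 CPM at hour 0 and 18.9, 23.3, 18.6 and 21.0 CPM at hour 16, while the same hours in darkness gave 37.1, 43.4, 40.0 and 39.8 CPM and 24.2, 32.1, 38.8 and 31.9 CPM. In the cycle its amplitude was 0.76 ± 0.038, peaking at hour 2.95 ± 0.19 (edgeR adjusted p = 1.52e-29). GstZ1, its neighbour, had 18.4, 17.5, 16.7 and 16.6 CPM at hour 20 and 8.66, 7.42, 9.07 and 9.502 CPM at hour 12 (amplitude 0.49 ± 0.062, peak at hour 22.0 ± 0.48). The pair thus peaked some hours apart. GstD10 had 4.42, 6.38, 4.67 and 5.10 CPM at hour 4 and 2.48, 1.97, 1.83 and 1.91 CPM at hour 16 (amplitude 0.64 ± 0.081, peak at hour 3.15). The other 7 called GSTs were GstE9, GstD3, GstE2, GstE1, GstT4, GstD1 and GstO2, with amplitudes of 0.31 for GstE9 down to 0.10 for GstO2 and peaks between hours 3.14 and 8.92.

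**Figure D4:**
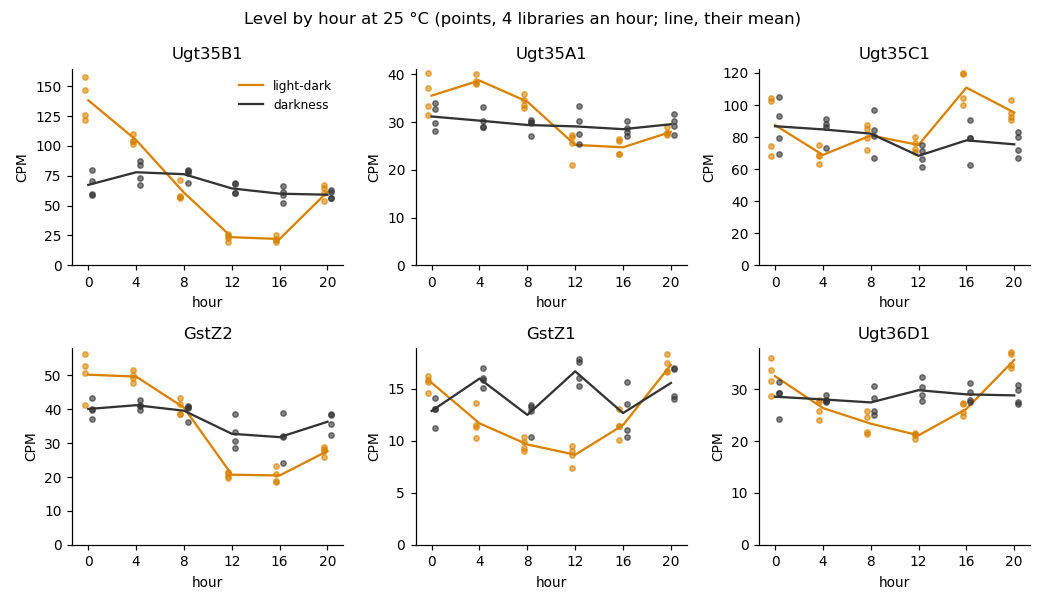
Level in CPM by hour at 25 °C in the light-dark cycle (orange) and in constant darkness (grey) for 6 genes; points are the 4 libraries of each hour (2 days, 2 replicates) and lines join their means. In the cycle Ugt35B1 runs between means of 138 CPM at hour 0 and 22.1 CPM at hour 16, whereas in darkness its means lie between 59.1 and 77.9 CPM; Ugt35C1 is highest at hour 16, when the other 2 Ugt35 genes are lowest.

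Most fitted peaks of the rhythmic members lay between hours 20 and 8. Of the 24 rhythmic members, 19 (79.2%) peaked between hours 20 and 8, among them 9 of 10 GSTs and 10 of 14 UGTs, beside 55.5% of the 1510 genes called in the cycle. This window was not set in advance, so the gap between these shares is a description and supports nothing. No member peaked between hours 12 and 16. The 5 others were Ugt35C1, Ugt37C2 and Ugt37D1, which peaked between hours 16 and 20, and GstO2 and Ugt301D1, which peaked between hours 8 and 12. For 22 of the 24 members, each of the 4 libraries at the highest hour was above each of the 4 at the lowest hour, a description only since the hours were picked from the data. The exceptions were Ugt302K1 and Ugt37C2.

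Not all of these curves were called with fewer libraries. The count of rhythmic members was 17 without replicate 1, 17 without replicate 2 and 14 on day 4 or day 5 alone. The share of all genes fell as well, from 13.7% to 6.23% without replicate 1 and 9.1% without replicate 2. It was 5.4% on day 4 and 5.35% on day 5. In all, 12 members, 5 GSTs and 7 UGTs, were called under every other setting that tested them, namely Ugt35B1, Ugt35A1, Ugt35E2, Ugt302C1, Ugt36D1, Ugt36F1, Ugt36A1, GstZ1, GstZ2, GstD10, GstD3 and GstT4. Ugt301D1 had 19.0 and 19.4 CPM in the replicate 1 libraries of hour 0 but 31.1 and 31.8 CPM in those of replicate 2, and without replicate 1 its amplitude was 0.12 (edgeR adjusted p = 0.621). Curves of Ugt37D1, GstD1, GstO2 and Ugt302K1 were not called when either replicate number was left out, and Ugt302K1 then had amplitudes of 0.40 (edgeR adjusted p = 0.0994) without replicate 1 and 0.18 (p = 0.641) without replicate 2. Those of Ugt37C2 and GstE2 were not called without replicate 1, nor those of Ugt50B3, GstE9 (0.24, edgeR adjusted p = 0.217) and Ugt49C1 without replicate 2.

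In darkness the called curves were shallow. The curve of GstZ2 at 25 °C had amplitude 0.20 ± 0.037, peaking at hour 3.07 ± 0.71 (edgeR adjusted p = 0.00184), close in hour to its peak in the cycle. The curve of Ugt35B1 had amplitude 0.21 ± 0.044, peaking at hour 5.63 ± 0.78, at 25 °C (edgeR adjusted p = 0.00855) and 0.23 ± 0.044, peaking at hour 8.71 ± 0.74, at 29 °C (p = 0.0131). None of the 3 was called when either replicate number was left out. Without replicates 1 and 2, 0.0273% and 0.173% of all genes were called at 25 °C, and 0.00909% and 0.1% at 29 °C. The amplitudes of GstZ2 were then 0.18 (edgeR adjusted p = 0.704) and 0.23 (p = 0.0749) without replicates 1 and 2, those of Ugt35B1 at 25 °C were 0.22 (p = 0.552) and 0.21 (p = 0.809), and those at 29 °C were 0.21 (p = 0.9999) and 0.25 (p = 0.229). No member differed in rhythm among the 3 dark temperatures (0.118% of all genes did), although 2, GstZ2 and Ugt35B1, had an unadjusted p under 0.05 in edgeR, and 2 members were called with the replicate block or with residual components in the fit.

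The difference in rhythm between the light-dark cycle and darkness at 25 °C was tested directly and called in 11 members, 8 UGTs and 3 GSTs, beside 5.21% of all genes. Its size is the amplitude, in log2 units, of the difference between the 2 fitted curves. The 8 UGTs were Ugt35B1, Ugt35E2, Ugt36A1, Ugt36F1, Ugt36D1, Ugt35C1, Ugt302C1 and Ugt35A1, and the 3 GSTs were GstD10, GstZ2 and GstZ1. Ugt35B1 had the largest difference at 1.28 (edgeR adjusted p = 3.43e-29), followed among UGTs by the sparse Ugt35E2 at 1.16 (p = 0.00016), and GstZ2 had 0.56 (p = 4.83e-13). GstZ1 stood at 1.21 times its darkness mean at hour 0 and at 0.519 times at hour 12. Without replicate 1 the count was 7, with GstD10, Ugt35C1, Ugt35E2 and Ugt36F1 not called, and without replicate 2 it was 9, with GstZ1 and Ugt36A1 not called. The share of all genes was then 1.83% and 2.21%.

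**Figure D5:**
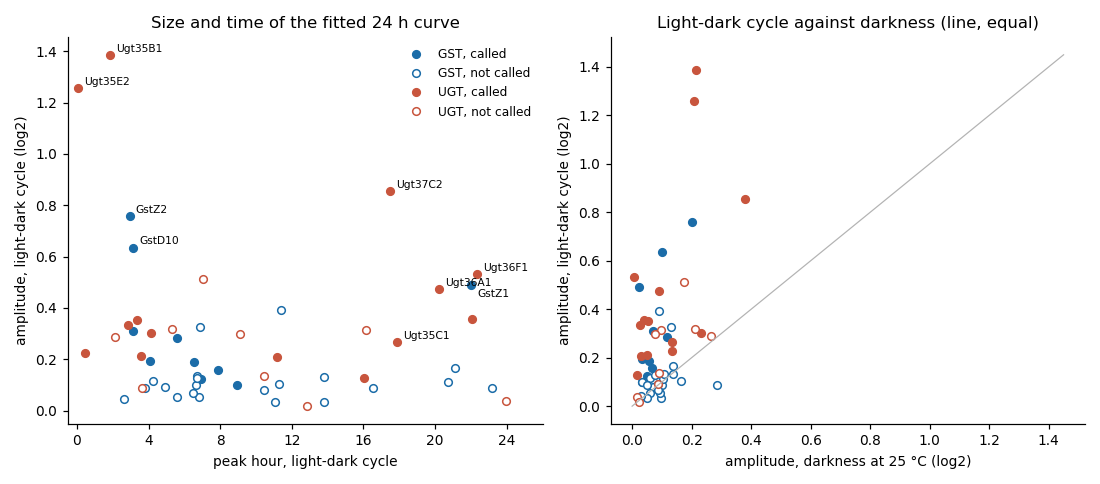
Amplitude (log2) of the fitted 24 h curve in the light-dark cycle for the 54 genes, against peak hour (left) and against the amplitude in darkness at 25 °C (right; the line marks equal values); GSTs in blue, UGTs in red, filled where a rhythm was called in the cycle. All 24 called genes lie above the line of equal amplitude, and Ugt35B1 reaches 1.39 in the cycle and 0.21 in darkness.

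Other genes of the conjugation pathway were described from lists. The following shares of all genes apply to this and the next 2 paragraphs. At 29 °C relative to 18 °C, 73.9% were called, 36.6% higher and 37.3% lower. In the cycle, 22.4% differed from darkness in level and 13.7% were rhythmic. Of 7 tested genes of glutathione synthesis and recycling, 3 were higher and 2 lower at 29 °C than at 18 °C, and 3 were higher and none lower in the cycle than in darkness. The gamma-glutamyl transferase gene Ggt-1 moved most, with a log2 fold change of -0.48 ± 0.028 at 29 °C relative to 18 °C and of 0.13 ± 0.028 in the cycle. The 2 subunits of the rate-limiting enzyme of glutathione synthesis were rhythmic in the cycle at different hours, the modifier subunit gene Gclm with 0.36 in amplitude at hour 12.3 (edgeR adjusted p = 4.39e-12), and the catalytic subunit gene Gclc with 0.28 at hour 19.0 (p = 6.67e-21).

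Of 5 GST-related genes outside the symbol rule (se, gfzf, eEF1gamma, fax and the microsomal Mgstl), 3 rose and 2 fell at 29 °C relative to 18 °C. Among them, sepia (se), an omega-type enzyme of red eye pigment synthesis, rose by 0.39 ± 0.054 and was rhythmic in the cycle (amplitude 0.77, peak at hour 21.2, edgeR adjusted p = 1.09e-20), beside 0.76 for GstZ2, the highest among the GST members. It lies beside GstO2, with which it overlaps on the opposite strand, while GstO2 had an amplitude of 0.10. Of 5 genes of UDP-sugar supply, 4 fell and none rose at 29 °C, beside 37.3% of all genes lower and 36.6% higher. Among them, meigo fell by 0.56 and frc, a transporter of UDP-sugars, by 0.37. None of these 5 was rhythmic in the cycle.

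Of 6 regulators of detoxification genes, 2 rose and 2 fell at 29 °C. The small Maf partner of the antioxidant regulator Cnc, maf-S, rose by 0.61 ± 0.029 and the nuclear receptor gene Hr96 by 0.47 ± 0.029. The 2 that fell were ss, by 0.39 ± 0.11, and tgo, by 0.31 ± 0.030. The gene cnc itself had a log2 fold change of -0.000645 at 29 °C and -0.03 in the cycle and was not called. Of 6 export transporters, 2 rose and 2 fell at 29 °C, and none differed in level between the cycle and darkness. In the cycle 3 were rhythmic, Mdr49, Mdr65 and rdog, beside 13.7% of all genes.

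Residual variation was shared across genes, members among them. After the fitted terms were removed, the leading component of all genes held 18.2% of the residual variance. Across the 96 libraries, the residuals of GSTs had a median Pearson r of 0.64 with that component (-0.50 to 0.93), and those of UGTs a median of 0.54 (-0.50 to 0.92). By absolute r, the median GST (GstO2) stood at percentile 71.0 of all genes and the median UGT (Ugt35B1) at 61.3. These values are a description, since genes of a library are measured together. GstE9, with 0.93, and Ugt49B1, with 0.92, followed it most closely.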

How the data were processed

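The authors' deposited table held estimated counts for 17610 genes in 96 libraries, with 40.2% of nonzero values not whole. Per the submitters' processing notes, fastp 0.23.2, HISAT2 2.2.1 and featureCounts of Subread 2.0.8 were used. The genome build, annotation and strand setting are not given in the sources used here. Symbols matched 17607 identifiers in BDGP6.54. The estimated counts, as deposited, were rounded to whole numbers, genes with at least 10 counts in at least 12 libraries were kept (11000), and TMM factors and a quasi-likelihood model were fitted with edgeR 4.0.16 in R 4.3.3. Each condition had its own mean, day shift and pair of 24 h waves (16 columns in all, 80 residual degrees of freedom). Adjusted p-values are Benjamini-Hochberg over the 11000 genes, with calls under 0.05, and the delta method gave the SEs of amplitudes and peak hours. CPM values use TMM library sizes.

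Groups came from the library titles. The series' design text calls the replicates biological and says no more of their source, so p-values measure the spread between these libraries. Members and lists were chosen with earlier results of these data known. Named genes are called members with a mean of at least 1 CPM, per family up to 5 rises and 5 falls (3 and 3 for 29 °C with 25 °C and for light), up to 8 rhythms by amplitude in the cycle and 4 in each dark condition or difference, and the 5 most abundant per kb. Others were named after their values were seen. The design had assumed whole counts. The tests were tried on simulated data, and alternatives (limma-voom and DESeq2 1.42.0 among them) are given in the closing section. No sequence was used here. Depth covers counting error only, and the labels name no molecular identifiers.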

Additional observations from a re-analysis of the deposited data

Results flagged for a closer look

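The rhythm of 11 members differed between the light-dark cycle and constant darkness at 25 °C when the difference itself was tested, and each is listed for that reason, with the size of the difference in log2 units. The 3 GSTs were GstD10 with 0.576, GstZ2 with 0.557 and GstZ1 with 0.514. The 8 UGTs were Ugt35B1 with 1.28, Ugt35E2 with 1.16, Ugt36A1 with 0.546, Ugt36F1 with 0.532, Ugt36D1 with 0.358, Ugt35C1 with 0.357, Ugt302C1 with 0.309 and Ugt35A1 with 0.303. The calls for GstZ2, Ugt302C1, Ugt35B1, Ugt35A1 and Ugt36D1 were made under each of the other 14 settings.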

How the results depend on the processing

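The counts of GSTs and UGTs called at 29 °C relative to 18 °C, and of UGTs at 18 °C relative to 25 °C, stayed within 1.5 times under the 14 settings tried for each. Total counts also stayed within 1.5 times under other scaling, filtering, rounding, limma-voom, DESeq2 or a fit of 2 conditions alone, but by direction a mean of at least 1 CPM (18 UGTs) gave 4 UGTs higher at 29 °C than at 18 °C in place of 7, 5 lower at 18 °C than at 25 °C in place of 8, and 1 higher at 29 °C than at 25 °C in place of 2. With day 4 alone, 14 GSTs were called at 18 °C relative to 25 °C, 7 higher and 7 lower in place of 19 and 5. That day also gave 4 GSTs at 29 °C relative to 25 °C, and 7 GSTs and 3 UGTs in the light-dark cycle. With day 5 alone, 3 GSTs and 3 UGTs were called at 29 °C relative to 25 °C and 3 UGTs in the cycle. Of those GSTs, 2 were higher and 1 lower at 29 °C, in place of 2 and 8. Calls over all genes on day 4 came to 53.7% at 18 °C relative to 25 °C. On days 4 and 5 they came to 7.3% and 14.9% at 29 °C relative to 25 °C, and to 5.05% and 7.85% in the cycle. Rhythms in the cycle came to 14 on day 4 and on day 5 (5 GSTs and 9 UGTs on each), those in darkness to 1 and 0 at 25 °C and 0 and 0 at 29 °C, and rhythm differences between cycle and darkness to 7 and 6. Leaving out a replicate number gave 13 to 19 GSTs at 18 °C relative to 25 °C, 5 to 6 GSTs and 3 to 6 UGTs at 29 °C relative to 25 °C, 5 to 17 GSTs and 3 to 4 UGTs in the cycle, 0 to 0 rhythms in darkness at 25 °C and at 29 °C, and 7 to 9 rhythm differences. With the 2 leading residual components as covariates, 12 UGTs were called in the cycle, rhythms in darkness came to 1, 6 and 3 at 18 °C, 25 °C and 29 °C, and rhythm differences to 21 against darkness and 2 among dark temperatures. The shares of all genes were then 37% for light, 5.3%, 6.04% and 5.77% for rhythms in darkness, and 13% and 0.955% for the differences. With hour as a factor, rhythms in darkness were 4 at 25 °C (6.8% of all genes) and 2 at 29 °C (2.95%). Same-numbered libraries of a day and hour correlated between conditions at -0.04 to 0.53, over 0.1 in 16 to 19 of 24 pairs. The numbers were not taken to pair the samples, and the main tests hold no block for them. Their leading residual component nevertheless correlated at 0.71 to 0.86. With a replicate block, 13 UGTs were called in the cycle, 10 higher and 3 lower (35% of all genes called). Of the GSTs, 18 were then called higher and 2 lower. Rhythm differences then came to 18 against darkness (11.6%) and 2 among dark temperatures (0.745%). At 18 °C relative to 25 °C, day 4 alone turned the log2 fold change of GstD1 to -0.04 (-0.0366), GstD3 to -0.000813, GstE11 to -0.00800 and GstO3 to -0.0509. The cause of these shifts was not tested, beyond the fewer libraries in some. Of the values for single genes under the 16 settings, 3443 kept direction and call, 204 lost and 64 gained a call, and 4 turned. The 8 members under 10 counts in some libraries are limited by depth.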
